A study of Homo sapiens with 30 samples.

Results

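Ribosome biogenesis factors are the proteins that transcribe, modify, cut and fold ribosomal RNA and build it, with ribosomal proteins, into the small (40S) and the large (60S) subunit. They were described here across 5 human cell lines with and without elraglusib, also called 9-ING-41, which inhibits the kinase GSK-3. The list held 40 genes. A gene counted as measured where the annotation of the array gives a probe set that symbol and no other, and the probe set with the highest mean over the 30 arrays stood for the gene. This held for 35 of the 40, among 22465 genes measured in the same way. NOP56, DKC1 and PPAN share their probe set with other symbols and GNL3 and EBNA1BP2 have no probe set listed under their symbol alone, so these 5 were not analysed here. Of the 35, only BOP1 had more than 1 probe set. Signals of different probe sets are not on a shared scale, so members are compared with themselves across arrays and not with each other.

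The colorectal lines, HCT-116, HT-29 and KM12C, were derived from carcinomas of the colon or rectum. NK-92 is a natural killer cell line and TALL-104 a leukemic T cell line, both cytotoxic and both grown with interleukin-2. Each line had 3 arrays of cells given 1 µM elraglusib for 24 h and 3 arrays of cells given the vehicle DMSO for the same time. The dose is that of the sample labels and of the study's figure legends, while its main text names IC-50 concentrations. All lines are bulk cultures, in which a change in every cell and a larger change in some of the cells cannot be told apart, nor can fewer cells of a type and less RNA per cell. The labels call the 3 arrays of a group biological replicates without saying that they came from separate cultures, so a p-value here sets a difference against the scatter of these 3 arrays, which may be technical. The labels name 2 hybridization batches with samples in random order, and the batch of an array is not given in the sources used here, so its part in the results was not tested. The signals are log2 values, differences are elraglusib minus DMSO with their standard error (SE), and a gene is said to have risen or fallen where the adjusted p of limma over all 67528 probe sets was under 0.05. Of 10 epithelial markers, 6 to 8 had a mean log2 signal over 8 in the colorectal lines and 0 in the cytotoxic lines. Of 9 NK cell markers 7 did in NK-92, 6 in TALL-104 and 0 in the colorectal lines. Of 10 T cell markers 5 did in NK-92, 6 in TALL-104, 1 in KM12C and 0 in HCT-116 and HT-29 cells. The counts thus set the colorectal apart from the cytotoxic lines, but not NK-92 from TALL-104 cells. Arrays of 1 line correlated with each other at 0.958 to 0.997 over 17407 probe sets, except in TALL-104 cells.

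The array labelled TALL-104 DMSO replicate 2 went against its label. It correlated with the mean of the NK-92 elraglusib arrays at 0.994 and with that of the NK-92 DMSO arrays at 0.992. With the mean of the other TALL-104 DMSO arrays it correlated at 0.872. Which treatment the array had was not tested. CD3D, part of the T cell receptor complex, had a log2 signal of 3.70 on it, 13.96 to 14.41 on the other 5 TALL-104 arrays and 3.54 to 3.98 on the NK-92 arrays. All 35 members lay nearer to the NK-92 than to the TALL-104 DMSO level on this array, with a median 1.61 above the other TALL-104 DMSO arrays and 0.04 below the NK-92 DMSO mean. The counts and differences that rest on this array are given with and without it.

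Ribosome synthesis starts in the nucleolus, where RNA polymerase I makes a long precursor of ribosomal RNA. Small nucleolar RNAs, packed with box C/D or box H/ACA proteins, guide its modification, and a very large complex, the small subunit (SSU) processome, folds and cuts the part that becomes the 40S subunit. Other factors assemble the 60S subunit, and both precursors leave the nucleus before their last steps of maturation. The pathway takes a large share of the energy of a growing cell, and the transcription factor MYC, itself a substrate of GSK-3, is known to drive many of its genes through the canonical E-box, the hexamer CACGTG.

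This motif stood in the promoter of many members. The RefSeq promoter table (GRCh38.p14, 250 bases before to 50 bases after each start) held 30 of the 35 members, and 14 of these 30 (46.7%) had CACGTG, which reads the same on both strands, against 1606 of 15247 genes measured on the array (10.5%). Of the 16 copies in the members, 13 lay within 50 bases of the start. The windows below are shown because they carry the motif (in capitals, with 12 bases on either side, in the direction of the gene) in 4 members that rose in HT-29 cells and in 4 that did not pass there.
PNO1: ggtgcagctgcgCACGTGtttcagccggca
LTV1: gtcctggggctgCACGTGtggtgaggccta
WDR43: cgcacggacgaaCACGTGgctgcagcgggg
DDX21: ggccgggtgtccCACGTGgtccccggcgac
FBL: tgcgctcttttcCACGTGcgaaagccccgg
PES1: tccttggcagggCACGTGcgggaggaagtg
RRP9: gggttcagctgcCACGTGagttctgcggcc
MRTO4: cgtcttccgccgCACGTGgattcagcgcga
The PNO1 window is chr2:68157885-68157914 on the plus strand, with the motif from base 10 of the transcript. Those of LTV1 (chr6:143843354-143843383), WDR43 (chr2:28894658-28894687) and DDX21 (chr10:68956604-68956633) are on the plus strand too. The windows of FBL (chr19:39846356-39846385), PES1 (chr22:30591880-30591909) and RRP9 (chr3:51941892-51941921) are on the minus strand, and that of MRTO4 (chr1:19251807-19251836) is on the plus strand. The motif stood in 7 of 16 promoters of members that rose in HT-29 cells (43.8%) and in 7 of 14 of the others (50.0%). It stood in 16 of 40 promoters of other small subunit factors (40%), in 11 of 40 of other large subunit factors (27.5%) and in 3 of 43 of ribosomal protein genes (6.98%). A match of letters is a description and not a binding site.

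In HT-29 cells, 18 of the 35 members rose with elraglusib and none fell. This is 51.4% of the members, while 4.06% of all measured genes rose and 5.79% fell, and the risen share was 8.72% among genes within the members' range of mean signal. The median difference over the members was 0.56, against -0.02 over all genes, and 34 of the 35 differences lay above 0. On 22 members the 3 elraglusib arrays all lay above the 3 DMSO arrays, as they did for 12.1% of all genes. By array, the median deviation of the members from their HT-29 mean was 0.30, 0.36 and 0.25 on the elraglusib arrays, against -0.22, -0.16 and -0.495 on the DMSO arrays. The treated and the vehicle arrays were thus apart, with DMSO replicate 3 the lowest, while the same median over all genes stayed between -0.03 and 0.06 on these 6 arrays.

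**Figure D1:**
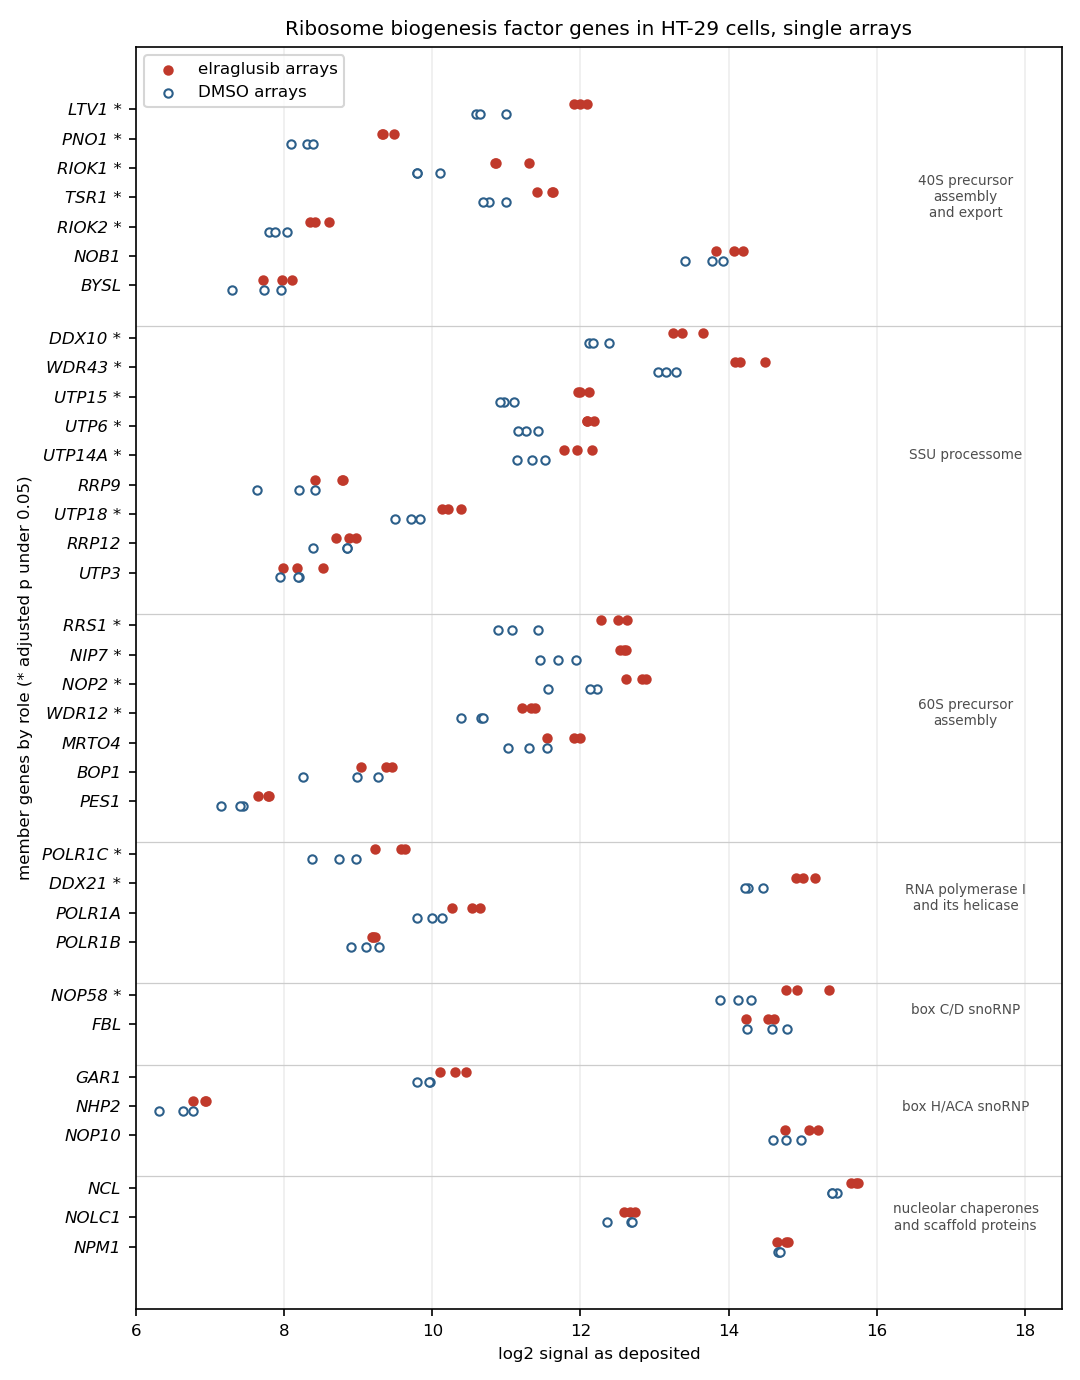
Log2 signal (horizontal axis) of the 35 members on each of the 3 elraglusib (filled) and the 3 DMSO arrays (open) of HT-29 cells, in blocks by role. An asterisk marks the 18 members with an adjusted p under 0.05, all with higher signal on elraglusib arrays.

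The factors that finish the 40S precursor held some of the clearest rises in HT-29 cells, with 5 of 7 called. LTV1, an assembly factor of the 40S precursor, had signals of 11.91, 12 and 12.09 on elraglusib arrays, against 10.59, 10.99 and 10.64 on DMSO arrays. All treated arrays lay above all vehicle arrays, and the difference was 1.26 (SE 0.14, limma adjusted p = 0.000758), or 2.40-fold. PNO1, the RNA-binding partner of the nuclease NOB1 at the end of the 18S precursor, had 9.34, 9.48 and 9.32 with elraglusib, against 8.31, 8.39 and 8.09 with DMSO. These groups did not overlap either, with a difference of 1.12 (SE 0.12, adjusted p = 0.000817). RIOK1, an atypical kinase of late 40S maturation, had 10.85, 10.86 and 11.30 on elraglusib arrays, against 9.80, 10.10 and 9.80 on DMSO arrays. Its difference was 1.10 (SE 0.16, adjusted p = 0.00317), with 1 treated array above the other 2. TSR1, a GTPase-like protein that occupies the 40S precursor, rose by 0.73 (SE 0.13) and RIOK2, the related kinase, by 0.55 (SE 0.12). The nuclease NOB1 itself (0.33, adjusted p = 0.349) and BYSL (0.27, adjusted p = 0.559) did not pass, and their arrays overlapped between the groups.

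Of the 9 SSU processome proteins, 6 rose in HT-29 cells. UTP15, a subunit of the UtpA subcomplex that first binds the precursor RNA, had 11.99, 11.97 and 12.12 with elraglusib, against 10.97, 11.10 and 10.91 with DMSO. The gap between the groups was wider than the spread within either, with a difference of 1.03 (SE 0.11, adjusted p = 0.000787), a call that was lost in the fit of all 30 arrays (adjusted p = 0.0831). DDX10, a helicase of the processome, had 13.25, 13.37 and 13.65 with elraglusib, against 12.12, 12.38 and 12.17 with DMSO, a difference of 1.20 (SE 0.14, adjusted p = 0.0011). WDR43, another UtpA subunit, had 14.08, 14.16 and 14.49 with elraglusib, against 13.05, 13.29 and 13.16 with DMSO, a difference of 1.08 (SE 0.14, adjusted p = 0.002). For both genes the treated arrays stood apart from the vehicle arrays and elraglusib replicate 3 was the highest. UTP6, UTP14A and UTP18 rose by 0.84, 0.63 and 0.56. RRP9, a protein of the U3 particle, had a difference of 0.58 with overlapping arrays (adjusted p = 0.154), RRP12 one of 0.15 and UTP3 one of 0.11.

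Among the 7 measured 60S factors, 4 rose in HT-29 cells. RRS1, which helps to place the 5S RNA particle into the large subunit precursor, had 12.28, 12.50 and 12.63 with elraglusib, against 11.07, 11.42 and 10.89 with DMSO. Its difference of 1.34 (SE 0.16, adjusted p = 0.00129), or 2.54-fold, was the highest of all members in any line, and the groups did not overlap. NIP7 rose by 0.89 and NOP2, a methyltransferase of the large ribosomal RNA, by 0.81. Of the PeBoW complex, WDR12 rose by 0.73 (adjusted p = 0.00818), while PES1 (0.41, adjusted p = 0.0959) and BOP1 (0.45, adjusted p = 0.402) did not pass. POLR1C, a subunit that RNA polymerases I and III share, rose by 0.79 and DDX21, a nucleolar helicase, by 0.71, while the largest subunit of polymerase I, POLR1A, did not pass (0.51, adjusted p = 0.0715).

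The core proteins of the small nucleolar particles and the abundant nucleolar chaperones had few calls in HT-29 cells. NOP58, a scaffold of box C/D particles, rose by 0.92 (SE 0.18, adjusted p = 0.0138), and fibrillarin (FBL), the methyltransferase of the same particles, had a difference of -0.08 (adjusted p = 0.906). None of the 3 measured box H/ACA proteins was called (0.23 to 0.38). Nucleolin (NCL) had 15.65, 15.75 and 15.72 with elraglusib, against 15.46, 15.40 and 15.40 with DMSO, so its arrays were apart at a difference of 0.29 (adjusted p = 0.169). Nucleophosmin (NPM1) had a difference of 0.06 and NOLC1 of 0.08, with adjusted p-values of 0.898 and 0.866. With each of the 6 arrays left out in turn, 13 to 17 members were called, and 12 of the 18 were called in all 6 of these fits, while RIOK2 was called in 1 of them. In the fit of all 30 arrays 11 members were called, and 23 in that fit without the odd array.

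Rises were smaller in HCT-116 cells, where 2 of 35 members passed and none fell, beside 1.09% of all genes that rose and 0.677% that fell. The median difference was 0.28, against 0.02 over all genes, and 33 of 35 differences lay above 0. Arrays of the groups were apart upward for 24 members, a pattern shown by 13.7% of all genes, and apart downward for none. PNO1 had 9.30, 9.24 and 9.23 with elraglusib, against 8.63, 8.61 and 8.68 with DMSO, a difference of 0.62 (SE 0.084, adjusted p = 0.025). RRP12, a HEAT repeat protein of 40S export, had 9.46, 9.48 and 9.48 with elraglusib, against 8.83, 8.96 and 8.84 with DMSO, a difference of 0.60 (SE 0.087, adjusted p = 0.0302). Replicates of both genes lay close together and the groups were well apart. NOP10, a box H/ACA protein, had 15.20, 15.29 and 15.24 with elraglusib, against 14.78, 14.75 and 14.79 with DMSO (0.47, adjusted p = 0.0523). BYSL, a 40S factor known as bystin, had 8.80, 8.77 and 8.72 with elraglusib, against 8.29, 8.30 and 8.32 with DMSO (0.46, adjusted p = 0.054). Both came close to the threshold without passing it. UTP15 had 11.87, 11.59 and 11.83 with elraglusib, against 10.93, 11.34 and 11.29 with DMSO (0.58, adjusted p = 0.117). PES1 had 8.90, 8.88 and 8.86 with elraglusib, against 8.49, 8.60 and 8.52 with DMSO (0.34, adjusted p = 0.123). Their arrays were apart too, with a wider spread for UTP15. Neither PNO1 nor RRP12 passed in any of the 6 fits that left out 1 array, whichever it was, or in the fit of all 30 arrays (adjusted p = 0.427 and 0.895).

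In KM12C cells 1 of 35 members rose and none fell, beside 0.361% of all genes that rose and 1.53% that fell. The median difference was 0.21, against 0.08 over all genes, and 15 members had all elraglusib arrays above all DMSO arrays, as had 14.2% of all genes. PNO1 had 8.58, 8.59 and 8.59 with elraglusib, against 7.97, 7.97 and 8.01 with DMSO, a difference of 0.60 (SE 0.10, adjusted p = 0.034). The spread within each group was under 0.05, far below the gap. POLR1C had 9.72, 9.89 and 9.89 with elraglusib, against 9.26, 9.09 and 9.44 with DMSO (0.57, adjusted p = 0.0761). BYSL had 8.53, 8.47 and 8.47 with elraglusib, against 8.08, 7.97 and 8.17 with DMSO (0.42, adjusted p = 0.111). In both the groups were apart. NHP2 and GAR1, proteins of box H/ACA particles, had 6.78, 6.81 and 6.90 and 10.06, 10.18 and 10.10 with elraglusib, against 6.42, 6.37 and 6.56 and 9.61, 9.90 and 9.68 with DMSO (both 0.38, adjusted p = 0.143 and 0.164). NIP7 had 12.46, 12.54 and 12.49 with elraglusib, against 12.28, 12.09 and 12 with DMSO (0.37, adjusted p = 0.164). None of these overlapped between the groups, and none passed. PNO1 kept its call in 1 of the 6 fits that left out an array, the one without DMSO replicate 3, in which 5 members passed. It lost it without each of the other 5 arrays and in the fit of all 30 arrays (adjusted p = 0.196).

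PNO1 was the only member that rose in all 3 colorectal lines, with calls in HCT-116 and KM12C cells that did not hold in the left-out fits above. Of the other members, 18 rose in a single line, 0 in exactly 2, and 16 in none. The direction was more widely shared than the calls, as 28 of 35 members (80%) had a difference above 0 in all 3 lines, against 20.2% of all genes. Those 28 included every measured member of the box H/ACA particle and the 60S list. Across the 35 members the sizes of the differences were loosely related between lines, at a Pearson correlation of 0.13 for HT-29 and HCT-116 cells, 0.30 for HT-29 and KM12C cells and 0.25 for KM12C and HCT-116 cells (0.17, 0.46 and 0.21 over all genes). The members share arrays and are not independent, so these values are descriptions.

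**Figure D2:**
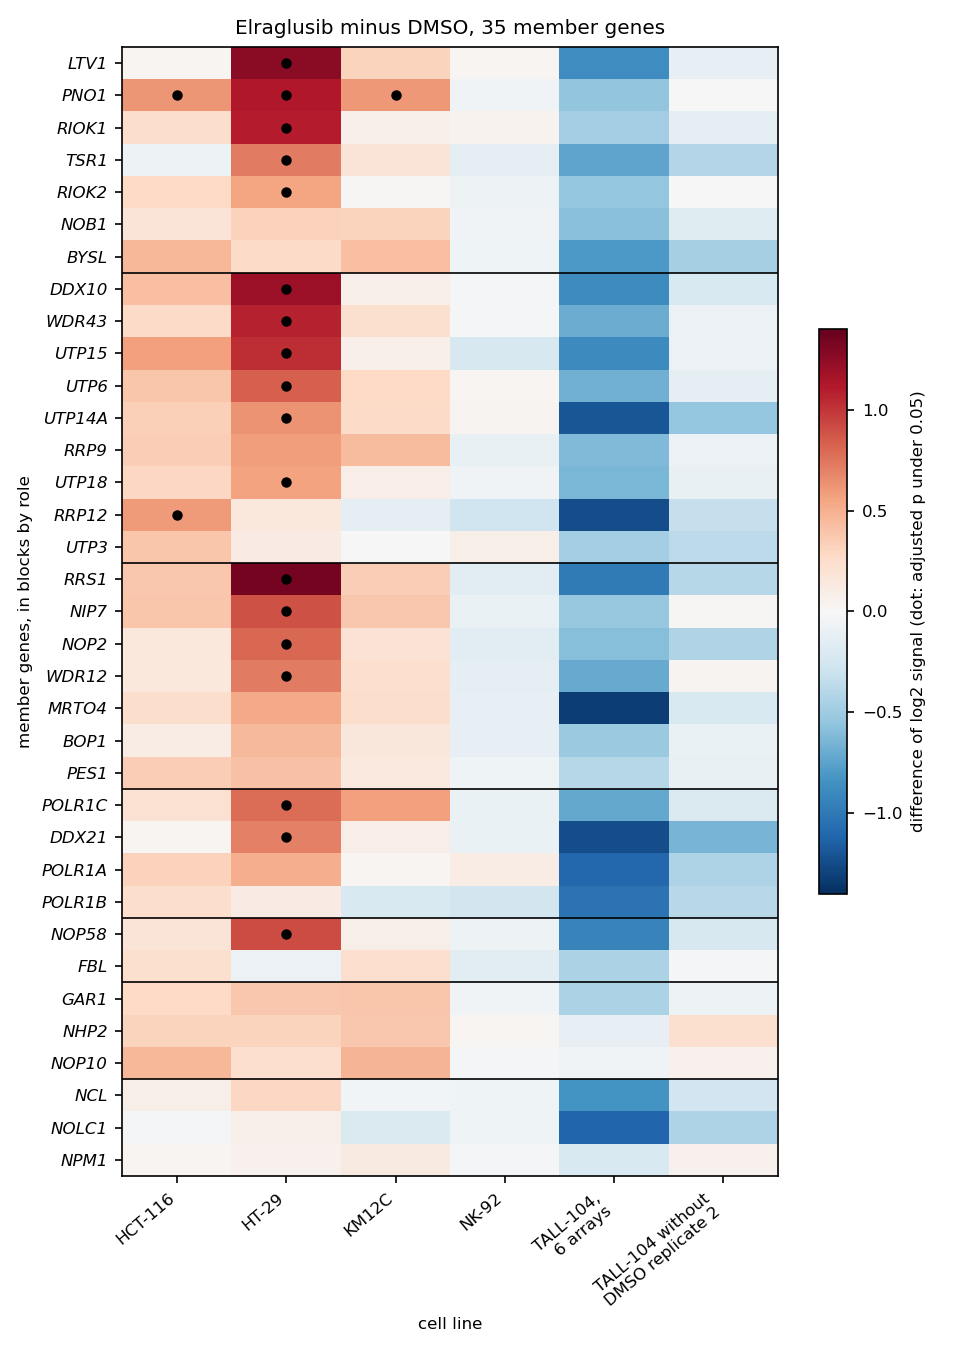
Difference between elraglusib and DMSO (colour, log2) for the 35 members in each line, in blocks by role, with a dot at an adjusted p under 0.05 and TALL-104 with and without DMSO replicate 2. Dots fall on 2 members in HCT-116, 18 in HT-29 and 1 in KM12C cells.

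In NK-92 cells no member rose or fell, and no probe set of the array did (0% of all genes), while 2934 probe sets had an unadjusted p under 0.05. The median difference of the members was -0.06 and their range -0.28 to 0.10. The member with the smallest p was RRP12, with 9.30, 9.35 and 9.05 with elraglusib, against 9.44, 9.59 and 9.50 with DMSO, a difference of -0.28 (SE 0.12), and it was the only member with an unadjusted p under 0.05. POLR1B, the second largest polymerase I subunit, had 10.27, 9.95 and 10.05 with elraglusib, against 10.32, 10.32 and 10.41 with DMSO. UTP15 had 11.40, 11.25 and 11.25 with elraglusib, against 11.41, 11.63 and 11.52 with DMSO. These belong to the 6 members whose elraglusib arrays all lay below the DMSO arrays, beside 3.44% of all genes, and the gaps were narrow. FBL had 14.37, 14.41 and 14.27 with elraglusib, against 14.45, 14.61 and 14.44 with DMSO. TSR1 had 10.29, 10.35 and 10.39 with elraglusib, against 10.42, 10.51 and 10.51 with DMSO. WDR12 had 10.47, 10.38 and 10.40 with elraglusib, against 10.49, 10.62 and 10.53 with DMSO. Their differences were between -0.15 and -0.13, and limma adjusted p-values were 1 throughout.

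In TALL-104 cells no member passed either, with or without the array that went against its label, and no probe set did (0% of all genes, with 3280 probe sets at an unadjusted p under 0.05). The array decided the size of the differences. The median over the members was -0.69 with it and -0.13 without it. DDX21 had 12.23, 11.81 and 12.36 with elraglusib, against 12.81, 14.55 and 12.75 with DMSO, where the second value is the odd array. BYSL had 7.71, 7.41 and 7.81 with elraglusib, against 8.14, 9.14 and 8.07 with DMSO. TSR1 had 9.19, 9.18 and 9.47 with elraglusib, against 9.59, 10.67 and 9.79 with DMSO. In all of them the elraglusib arrays also lay below the other 2 DMSO arrays, and the differences were -1.24, -0.81 and -0.74 (adjusted p = 0.823). Without the odd array they were -0.65 (SE 0.19), -0.46 (SE 0.15) and -0.41 (SE 0.15), each with an adjusted p of 0.918. UTP14A had 9.31, 9.00 and 9.58 with elraglusib, against 9.87, 11.80 and 9.81 with DMSO. POLR1B had 7.89, 7.77 and 7.94 with elraglusib, against 8.31, 10.18 and 8.20 with DMSO. NOP2 had 10.86, 10.41 and 11.22 with elraglusib, against 11.27, 11.78 and 11.24 with DMSO. Only NOP2 had a treated array within 0.05 of a vehicle array. Of the 35 members 15 had all elraglusib arrays below all DMSO arrays, both with the odd array (5.23% of all genes) and without it (9.72%).

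Whether responses differed between lines was tested as the difference of the 2 differences. In the fit of all 30 arrays, the response of HT-29 cells against that of KM12C cells was higher for 1 of 35 members, beside 1.26% of all genes, and against that of HCT-116 cells for 0 members, beside 1.62% (6 members at an unadjusted p under 0.05). RIOK1 was the member that passed, as its difference in HT-29 cells exceeded that in KM12C cells by 1.04 (SE 0.27, adjusted p = 0.0407, and 0.000472 without the odd array). In KM12C cells it had 9.75, 9.78 and 9.72 with elraglusib, against 9.58, 9.81 and 9.66 with DMSO, so these groups overlapped. It lost the call when any of 9 of the 12 arrays of the 2 lines was left out, and kept it without HT-29 elraglusib replicate 1, HT-29 DMSO replicate 2 or KM12C DMSO replicate 3. The spread in this fit is shared with TALL-104 cells and so with the odd array. Without that array 12 members passed against HCT-116 cells (3.17% of all genes) and 12 against KM12C cells (3.21%), and with the 12 arrays of the 2 lines alone 8 and 6 passed.

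LTV1 showed the widest gap between the responses of HT-29 and HCT-116 cells. In HCT-116 cells it had 12.78, 12.59 and 12.73 with elraglusib, against 12.71, 12.72 and 12.59 with DMSO, so that the groups overlapped and the response of HT-29 cells was higher by 1.23 (SE 0.46, adjusted p = 0.181; SE 0.15, adjusted p = 2.93e-06 without the odd array). TSR1 had 12.06, 11.83 and 12.01 with elraglusib, against 11.95, 12.13 and 12.04 with DMSO in HCT-116 cells, with a response higher by 0.80 in HT-29 cells (adjusted p = 0.0776, and 0.00221 without the odd array). DDX10 had 12.14, 12.07 and 11.90 with elraglusib, against 12.01, 12.08 and 11.81 with DMSO in KM12C cells, with a response higher by 1.13 in HT-29 cells (adjusted p = 0.234, and 0.000194 without the odd array). None of these passed with all 30 arrays. RRS1 had 11.28, 11.36 and 11.29 with elraglusib, against 10.96, 11.10 and 10.84 with DMSO in KM12C cells, where the groups were apart by less than in HT-29 cells (response higher by 1.00 in HT-29 cells, adjusted p = 0.303, and 0.0166 without the odd array). NOP2 had 12.99, 12.63 and 12.95 with elraglusib, against 12.62, 12.84 and 12.68 with DMSO in HCT-116 cells, and 12.84, 12.93 and 12.72 with elraglusib, against 12.70, 12.73 and 12.44 with DMSO in KM12C cells. The response of HT-29 cells was higher by 0.66 and 0.60 than these, without passing (adjusted p = 0.246 and 0.353, and 0.149 and 0.23 without the odd array).

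Between KM12C and HCT-116 cells no member's response differed, beside 0.129% of all genes higher and 1.23% lower in KM12C cells, and 0 members reached an unadjusted p under 0.05. RRP12 had 8.35, 8.46 and 8.59 with elraglusib, against 8.46, 8.86 and 8.46 with DMSO in KM12C cells, where the groups overlapped, unlike in HCT-116 cells. Its response was lower by 0.72 in KM12C cells (adjusted p = 0.71), and this passed without the odd array (SE 0.18, adjusted p = 0.0293), as the only member, beside 0.521% of all genes higher and 2.94% lower. UTP3, an SSU processome protein, differed by -0.39, POLR1B by -0.46 and POLR1C by 0.36 (KM12C minus HCT-116, adjusted p = 0.691, 0.748 and 0.778, and 0.601, 0.16 and 0.403 without the odd array).

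The responses of the colorectal lines were also set against those of the cytotoxic lines, as comparisons added after seeing the data. PNO1 had 8.69, 8.86 and 8.69 with elraglusib, against 8.62, 8.88 and 8.90 with DMSO in NK-92 cells, so these groups overlapped, unlike those of the colorectal lines. With all arrays, 2 members responded more in HT-29 than in NK-92 cells (1.27% of all genes), RIOK1 and RRS1, and 0 in HCT-116 cells (0.276%, with 1 member at an unadjusted p under 0.05) and in KM12C cells (0.0668%, with 1). Without the odd array the counts were 19 in HT-29 cells (3.33%), 3 in HCT-116 cells (PNO1, RRP12 and UTP15, 0.654%) and 1 in KM12C cells (PNO1, 0.325%). Against TALL-104 cells 19 members responded more in HT-29 cells (3.47%) and BYSL alone in HCT-116 cells (0.294%) and in KM12C cells (0.205%). Without the odd array these counts were 23 (3.38%), 2 (0.588%) and 3 (0.245%). The comparisons share the arrays of each line and are not independent.

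**Figure D3:**
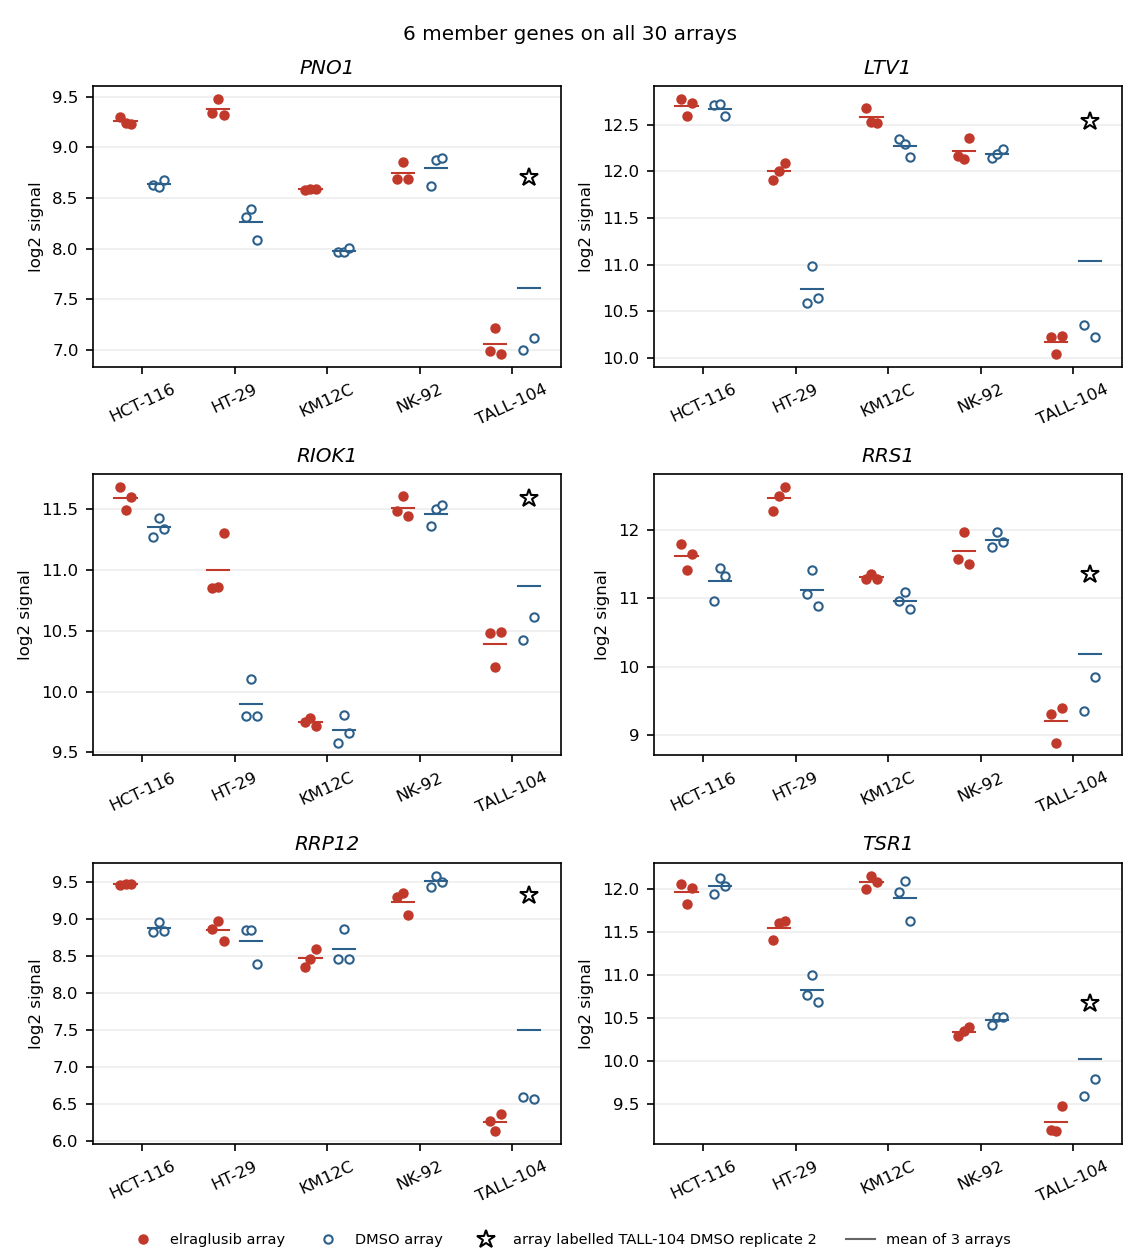
Log2 signal of 6 members on all 30 arrays, elraglusib (filled) left of DMSO (open) in each line, with the mean of the 3 arrays as a bar and a star for the array labelled TALL-104 DMSO replicate 2. PNO1 rose in the 3 colorectal lines, with its HCT-116 and KM12C calls kept in 0 and 1 of 6 fits that left out 1 array. LTV1 and RIOK1 rose in HT-29 cells, and the star lies at the level of NK-92 cells.

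Without the drug the members were at their lowest in TALL-104 cells and mostly at their highest in NK-92 or HCT-116 cells. With the odd array left out, the DMSO mean was lowest in TALL-104 cells for 31 of 35 members, and highest in NK-92 cells for 17 and in HCT-116 cells for 14. The range of the means over the 5 lines was 0.52 for UTP3 and 3.36 for NOLC1, with a median of 1.78 over the members. The median deviation of the members from their mean over the lines was 0.43 in HCT-116, 0.05 in HT-29, 0.23 in KM12C, 0.56 in NK-92 and -1.10 in TALL-104 cells. NK-92 against TALL-104 cells was higher for 30 of 35 members (12.7% of all genes) and lower for none (10.7%), at a median of 1.11. Without the odd array it was higher for 33 (19% of all genes) and lower for none (15.6%) at a median of 1.69, and the counts were 15 and 16 without TALL-104 DMSO replicate 1 or 3. MRTO4, a 60S assembly factor, was higher by 2.21 (SE 0.47) and RRP12 by 2.01 (SE 0.40) in NK-92 than in TALL-104 cells, and by 3.31 (SE 0.14) and 2.93 (SE 0.14) without the odd array.

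**Figure D4:**
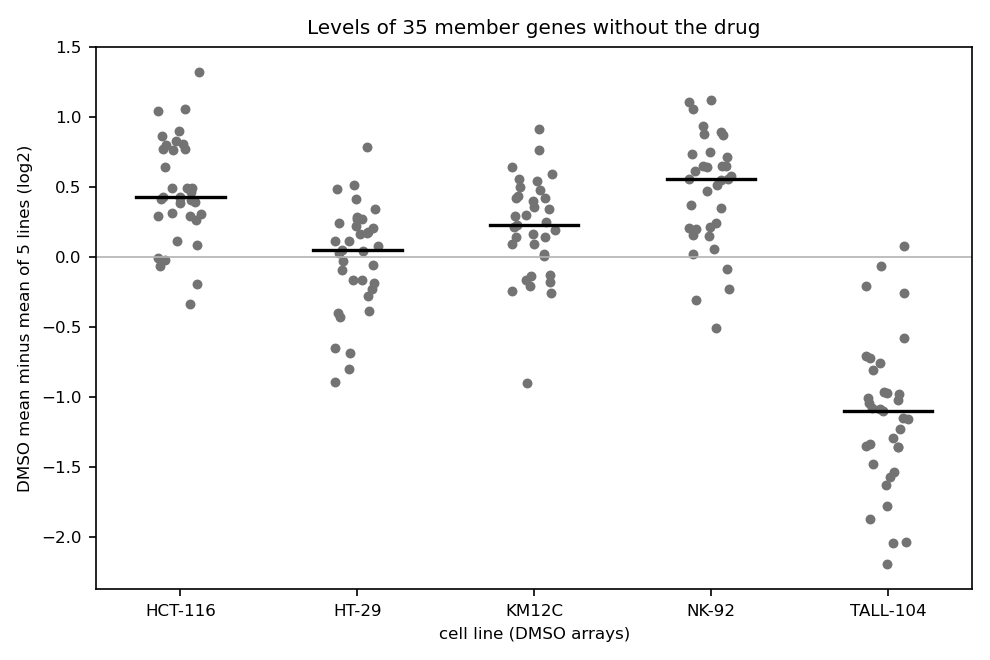
DMSO mean of each of the 35 members (points) minus its mean over the 5 lines (log2), by line, with the median as a bar and without the array labelled TALL-104 DMSO replicate 2. The median is -1.10 in TALL-104 cells and between 0.05 and 0.56 in the other lines.

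Between the colorectal and the cytotoxic lines members were called in both directions, but the lower count stayed below the share of all genes. The 2 kinds hold 3 and 2 lines, and arrays of 1 line are not replicates of a cell type. A p-value here sets line means against the scatter of arrays within lines, and does not speak for kinds of cell. With all arrays 12 members were higher and 4 lower in the colorectal lines, beside 23.9% and 28.9% of all genes. Without the odd array 28 were higher and 3 lower (26% and 30.5% of all genes). The 2 cytotoxic lines lay at opposite ends here. With that array left out, the median deviation of the members from their mean over the lines was 0.56 in NK-92 and -1.10 in TALL-104 cells. It was 0.43 in HCT-116, 0.05 in HT-29 and 0.23 in KM12C cells. By this median only TALL-104 cells lay below the colorectal lines, and NK-92 cells lay above them. TSR1 had 11.95, 12.13 and 12.04 in HCT-116, 10.77, 11 and 10.69 in HT-29 and 11.97, 12.10 and 11.63 in KM12C cells, against 10.42, 10.51 and 10.51 in NK-92 and 9.59, 10.67 and 9.79 in TALL-104 cells. Every colorectal array was above every cytotoxic array, though HT-29 at 10.69 barely cleared the odd array at 10.67. The difference was 1.34 (SE 0.11, limma adjusted p = 3.79e-10, and 1.50 without the odd array). NOLC1, a chaperone of nucleolar particles, had 13.55, 13.61 and 13.52 in HCT-116, 12.68, 12.70 and 12.36 in HT-29 and 12.93, 13.00 and 12.57 in KM12C cells, against 11.97, 12.04 and 12.03 in NK-92 and 10.19, 12.22 and 10.21 in TALL-104 cells. It was higher by 1.548 (SE 0.199, and 1.88 without the odd array) in the colorectal lines. BYSL had 8.29, 8.30 and 8.32 in HCT-116, 7.96, 7.73 and 7.30 in HT-29 and 8.08, 7.97 and 8.17 in KM12C cells, against 9.39, 9.49 and 9.39 in NK-92 and 8.14, 9.14 and 8.07 in TALL-104 cells. The difference was -0.92 with all arrays and -0.75 without the odd array, but its TALL-104 arrays overlapped the colorectal ones once the odd array was left out. RIOK1 had 11.27, 11.43 and 11.34 in HCT-116, 9.80, 10.10 and 9.80 in HT-29 and 9.58, 9.81 and 9.66 in KM12C cells, against 11.36, 11.50 and 11.53 in NK-92 and 10.42, 11.59 and 10.61 in TALL-104 cells. HCT-116 cells lay with NK-92 cells here, so the lower colorectal mean (-0.86, and -0.68 without the odd array) came from HT-29 and KM12C cells.

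Under DMSO and with all arrays, only the count of members higher in HCT-116 than in HT-29 cells exceeded the share of all genes. The other counts among the colorectal lines lay near or below that share. The same DMSO arrays enter these comparisons and those with elraglusib, so the 2 kinds of result are not independent. HCT-116 against HT-29 cells under DMSO was higher for 14 members (15.4% of all genes) and lower for 1 (13.3%), and the higher count was 8 without HCT-116 DMSO replicate 2 or 3 and 6 without HT-29 DMSO replicate 3. LTV1 was higher by 1.93 (SE 0.33, adjusted p = 6.5e-05) and RIOK1 by 1.45 (SE 0.19, adjusted p = 1.59e-06) in HCT-116 cells, and UTP6 was the member that was lower (-1.12). HT-29 against KM12C cells was lower for 5 members (14.9% of all genes), with LTV1 at -1.53 and TSR1 at -1.08, and higher for 2, UTP6 (0.76) and FBL (0.65), beside 12.2% of all genes, a count that was 0 or 1 without any of HT-29 DMSO replicates 1 and 2 and the 3 KM12C DMSO arrays. HCT-116 against KM12C cells was higher for 3 members (13.5%), RIOK1 (1.66), UTP18 (1.03) and PES1 (0.54), and lower for 0 (14.6%), and without KM12C DMSO replicate 2 it was higher for 2. Without the odd array the differences between these lines stayed the same, the members named here kept their calls, and more members were called. HCT-116 against HT-29 cells was then higher for 20 members (18.9%) and lower for 3 (16%), HT-29 against KM12C cells higher for 3 (14.9%) and lower for 14 (18.3%), and HCT-116 against KM12C cells higher for 9 (16.6%) and lower for 2 (17.5%).

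Genes of the same pathway outside the list rose with elraglusib in HT-29 cells as well. Of 46 other 60S factors 20 rose and 1 fell, and of 48 other SSU processome and 40S factors 12 rose and 1 fell, beside the 4.06% of all genes that rose. NIFK, a nucleolar partner of Ki-67, had 12.78, 12.87 and 12.94 with elraglusib, against 11.82, 12.06 and 11.75 with DMSO (0.99, adjusted p = 0.00163). RRP15 rose by 1.17, RBM28 by 0.89 and MAK16 by 0.96. The exceptions were EFL1, a GTPase of the last 60S step, with 9.10, 9.27 and 9.21 with elraglusib, against 9.76, 9.79 and 9.56 with DMSO (-0.51, adjusted p = 0.0326), and WDR36, an SSU processome protein, with 11.46, 11.44 and 11.59 with elraglusib, against 12.13, 12.40 and 12.21 with DMSO (-0.75, adjusted p = 0.00561). Both fell, with groups that did not overlap. Among 12 other RNA polymerase I subunits and initiation factors 3 rose, the subunits POLR1E (0.89) and POLR1F (0.67) and the factor UBTF (0.49, adjusted p = 0.0405). Of 14 subunits of the RNA exosome, which trims ribosomal RNA precursors, 0 passed, with 7 at an unadjusted p under 0.05 and a median of 0.32. Of 48 ribosomal protein genes 0 passed in HT-29 cells, 1 had an unadjusted p under 0.05, and the median was 0.04.

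In HCT-116 cells 2 of the 48 other SSU processome and 40S factors rose (4.17%), RCL1 (0.69) and NGDN (0.60). Of the 46 other 60S factors 0 rose, and of the 12 polymerase I factors 1 did (POLR1E, 0.74, or 8.33%). Beside these, 1.09% of all genes and 5.71% of the members rose. At an unadjusted p under 0.05, 19 of the 48 and 17 of the 46 were higher and 1 and 0 lower, beside 22 of the 35 members higher. In KM12C cells 0 of these genes passed, beside 0.361% of all genes that rose. A single ribosomal protein gene, RPL29, rose there (0.73, adjusted p = 0.0244). The ribosomal protein medians were 0.22 in HCT-116 and 0.24 in KM12C cells, near the medians of the members there (0.28 and 0.21), unlike in HT-29 cells. In NK-92 and TALL-104 cells none of these genes was called.

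**Figure D5:**
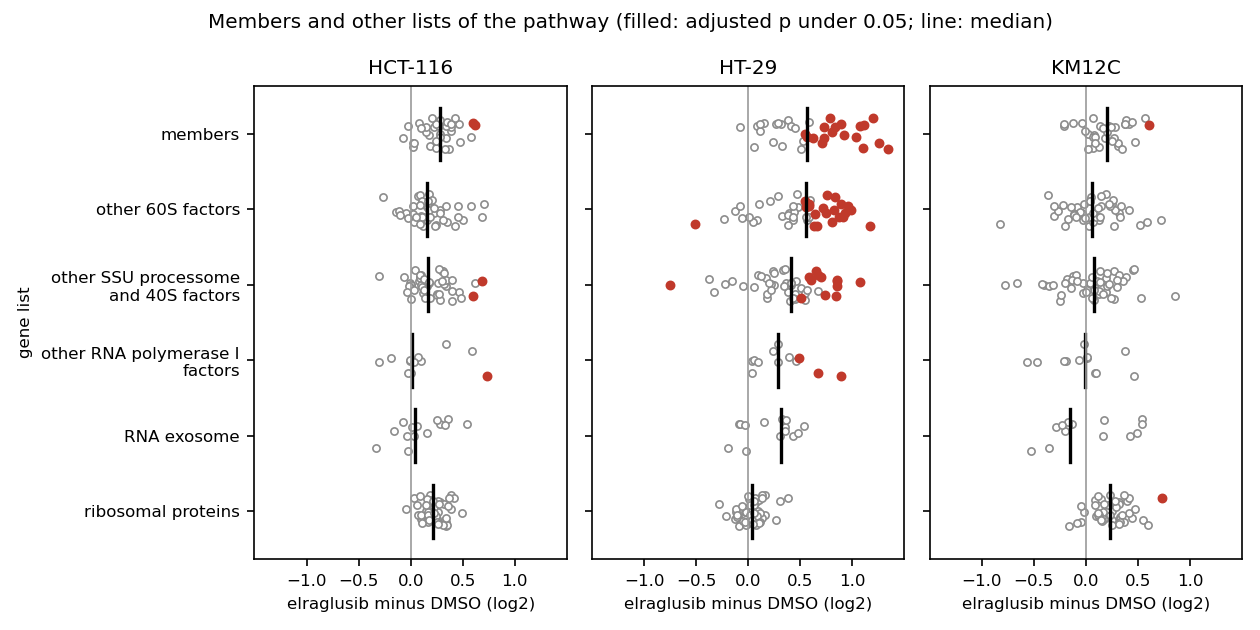
Difference between elraglusib and DMSO (log2, horizontal axis) of the members and of 5 other lists of the pathway in the 3 colorectal lines, with called genes filled and the median as a bar. In HT-29 cells the median is 0.56 for members and other 60S factors and 0.04 for ribosomal proteins.

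The MYC transcript fell in HT-29 and KM12C cells, where the member medians were 0.56 and 0.21, beside -0.02 and 0.08 over all genes. It had 11.72, 11.75 and 11.65 with elraglusib, against 12.45, 12.34 and 12.05 with DMSO in HT-29 cells, and fell by 0.57 on the log2 scale (SE 0.13, adjusted p = 0.0314). In KM12C cells it had 10.96, 11.18 and 11.29 with elraglusib, against 12.26, 12.01 and 11.97 with DMSO, and fell by 0.94 (SE 0.14, adjusted p = 0.0196). In HCT-116 cells it had 13.19, 13.13 and 13.24 with elraglusib, against 12.89, 13.05 and 12.97 with DMSO, a difference of 0.22 with groups apart that did not pass (adjusted p = 0.381), beside a member median of 0.28. Its difference was -0.37 in NK-92 cells (adjusted p = 1) and -0.92 in TALL-104 cells (adjusted p = 0.823, and -0.14 without the odd array), beside member medians of -0.06 and -0.69 (-0.13 without the odd array). In HT-29 and KM12C cells its treated arrays lay below all vehicle arrays. MAX, the partner of MYC on the E-box, fell in the same lines (-0.54 in HT-29 and -0.66 in KM12C cells). MLXIP, which binds a related box with MLX, rose in HT-29 cells (0.54), and no other gene of the 12 in this network was called in any line. Protein levels were not measured on these arrays, and a link of MYC to the members was not tested. The p53 targets MDM2 and CDKN1A rose in HCT-116 (2.08 and 1.61) and HT-29 cells (0.65 and 0.65) and not in KM12C cells (-0.53 and 0.14, adjusted p = 0.138 and 0.536).

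Several members carry genes of small nucleolar RNAs in their introns, which are cut out of the host transcript, and 14 of these were measured. In HT-29 cells 7 of the 14 rose and 1 fell, at a median of 0.86, beside 4.06% of all genes risen and 5.79% fallen. Small nucleolar RNA genes outside the members were not compared here, so a link of these rises to the hosts was not tested. All 3 RNAs of the NOP58 gene rose, and SNORD11B had 9.36, 9.74 and 9.84 with elraglusib, against 5.95, 6.52 and 5.27 with DMSO, a difference of 3.73 (SE 0.28, adjusted p = 0.000117). This exceeded the 0.92 of its host. SNORD11 rose by 1.90 and SNORD70 by 1.23. Both RNAs of WDR43 rose as well, and SNORD53 had 9.91, 9.90 and 10.07 with elraglusib, against 8.22, 8.09 and 8.30 with DMSO (1.76, adjusted p = 7.2e-05). SNORD92 rose by 1.00, SNORD91A of TSR1 by 1.19, and SNORD19 of GNL3, a host not measured here, by 1.25. The exception was SNORA75 in the nucleolin gene, with 7.44, 7.39 and 7.44 with elraglusib, against 8.43, 9.33 and 8.71 with DMSO. It fell by 1.4 on the log2 scale (SE 0.21, adjusted p = 0.00374), while its host did not pass. In KM12C cells 2 of the 14 rose, SNORD53 (1.03, adjusted p = 0.0213) and SNORD19 (0.86, adjusted p = 0.0295), beside 0.361% of all genes. WDR43, the host of SNORD53, did not pass there (0.22, adjusted p = 0.442). In HCT-116, NK-92 and TALL-104 cells 0 of the 14 were called, with 3, 6 and 1 at an unadjusted p under 0.05.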

How the data were processed

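RNA of 30 samples was read on Affymetrix Human Transcriptome Arrays. For each of 67528 probe sets the authors deposited a log2 signal, computed in the array maker's Transcriptomic Analysis Console (version and normalization not given in the sources used here), rounded to 2 decimals and used as deposited. Of the probe sets, 23781 had 1 symbol in the platform annotation, 1543 several and 42204 none, and no gene was named from the last 2 kinds. Arrays hold no read depth, so their number limits the precision. No 2 arrays held identical values.

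The members and all gene lists were chosen with earlier results of these data known. Each line was fitted alone (6 arrays) with limma 3.58.1 in R 4.3.3 (lmFit, eBayes), and p-values were adjusted by Benjamini-Hochberg over all probe sets. Responses and DMSO levels were compared between lines in 1 fit of the group means of all 30 arrays. Array values are given for the 6 members of smallest p in each line, and for most of the 4 of smallest p in each contrast of colorectal responses. They are also given for the 4 of smallest p in the DMSO contrast of colorectal and cytotoxic lines, and for some genes of the other lists. Other genes named or shown by array, such as NCL and SNORA75 in HT-29 cells, were chosen after their values were seen. No pairing by replicate number was seen, as no line had all same-numbered pairs correlated above 0.1 (-0.34 to 0.15), and the fits have no block. With 3 pairs a line, this check cannot exclude a pairing. Fits were tested on simulated data. Other normalization, filters, fits and left-out arrays were tried. Comparisons of lines beyond the 3 colorectal ones, and fits without the array labelled TALL-104 DMSO replicate 2, were added after seeing the data.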

Additional observations from a re-analysis of the deposited data

Results flagged for a closer look

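Responses of 2 lines were compared by a test of the difference itself, in the limma fit of all 30 arrays. RIOK1 responded more in HT-29 than in KM12C cells (by 1.04 on the log2 scale) and than in NK-92 cells (by 1.06), and RRS1 more in HT-29 than in NK-92 cells (by 1.51).

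The comparisons with NK-92 and TALL-104 cells were added after seeing the data. Against TALL-104 cells, 19 of 35 members responded more in HT-29 cells (3.47% of all genes). Among the 40S factors the differences were 1.67 for PNO1, 1.07 for BYSL, 1.59 for RIOK1, 1.47 for TSR1 and 2.13 for LTV1. Among the SSU processome proteins they were 1.51 for UTP6, 1.82 for UTP14A, 1.93 for UTP15, 1.20 for UTP18, 1.77 for WDR43 and 2.08 for DDX10. The 60S factors NOP2, PES1, RRS1 and NIP7 differed by 1.41, 0.81, 2.33 and 1.41, and NOP58, of the box C/D particle, by 1.85. POLR1A, POLR1C and DDX21 differed by 1.61, 1.51 and 1.95. BYSL also responded more in HCT-116 cells (by 1.27) and in KM12C cells (by 1.22) than in TALL-104 cells.

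All differences against TALL-104 cells include the array that went against its label. Without it 23 members passed in HT-29 cells (3.38% of all genes), with smaller differences, such as 1.38 for LTV1, 1.12 for PNO1, 1.74 for RRS1 and 0.73 for BYSL, and BYSL differed by 0.92 in HCT-116 and 0.88 in KM12C cells. Without it 19 members responded more in HT-29 than in NK-92 cells (3.33%), against 2 with it (1.27%). Single members were not screened for outlying arrays within groups of 3.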

How the results depend on the processing

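None of the 6 members of smallest p in each line changed the sign of its difference under any alternative run. Leaving out 1 array turned the sign of no line's member median. Counts have no sign to reverse, and several of them changed, as given below. Of the values of these members under the alternatives, 323 kept their side of the threshold, 24 lost a call and 13 gained one. Most of the 323 are of members that were not called to begin with, as in NK-92 and TALL-104 cells. With 1 array left out, PNO1 and RRP12 kept their HCT-116 calls in 0 of 6 fits, and PNO1 its KM12C call in 1 of 6. The 6 members of smallest p in HT-29 cells kept theirs in all 6. The 18 risen members of HT-29 cells became 11 with all 30 arrays in 1 fit, and 13 to 17 with 1 array left out. The 2 of HCT-116 cells became 4 without dim probe sets, 4 with a trended and robust eBayes, 0 with all 30 arrays in 1 fit, 5 when that fit left out the array labelled TALL-104 DMSO replicate 2, 8 with 1 probe set a gene fitted alone, and 0 without any 1 array. The 1 of KM12C cells became 0 with all 30 arrays, 3 in that fit without the odd array, 3 with 1 probe set a gene, and 0 to 5 with 1 array left out. With the replicate number as a block, 0 members were called in HCT-116 cells, 0 in KM12C cells and 18 in HT-29 cells. The same block gave 0 in the contrast of the HT-29 and KM12C responses. No pairing by number was seen, though 3 pairs a line cannot exclude it. In no line did every array correlate best with its own number (0 to 2 of 3 pairs).

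With the thresholds of the study's methods, 3 members in place of 0 fell in TALL-104 cells, and 1 without the odd array. For the responses, HT-29 against HCT-116 (0 members) gave 2 after quantile normalization, 8 with the 12 arrays of the 2 lines and 12 without the odd array. HT-29 against KM12C (1 member) gave 6 and 12 in the same fits and 0 to 1 with 1 array left out, and KM12C against HCT-116 gave 1 lower without the odd array. For DMSO levels, HCT-116 against KM12C (3 higher, 0 lower) gave 6 higher after quantile normalization, and 9 higher and 2 lower without the odd array. HCT-116 against HT-29 (14 higher, 1 lower) gave 3 lower without it and 6 to 13 higher with 1 array left out. HT-29 against KM12C (2 higher, 5 lower) gave 14 lower without it and 0 to 2 higher with 1 array left out. Colorectal against cytotoxic lines gave 9 to 28 higher and NK-92 against TALL-104 cells 15 to 33 higher with 1 array left out. The cause of these changes was not tested. With 3 arrays a group, small differences could not be called, and signals near the background of the arrays understate a fold change.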
